A study of Rattus norvegicus with 6 samples.

Results

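The PIWI-interacting RNA (piRNA) pathway protects the germ line. Its 10 genes studied here, Piwil1, Piwil2, Piwil4, Tdrd1, Tdrd5, Tdrd9, Mael, Mov10l1, Ddx4 and Asz1, were taken by their symbol from a table of 35291 rat genes. Each symbol labels exactly 1 row, so that 10 of 10 members were found, and all 10 passed the filter of a mean of at least 0.5 FPKM. They are grouped below as the PIWI proteins (Piwil1, Piwil2 and Piwil4), the Tudor domain proteins (Tdrd1, Tdrd5 and Tdrd9), the RNA helicases (Mov10l1 and Ddx4) and 2 further components (Mael and Asz1). Their identifiers in the table are ENSRNOG00000000934 (Piwil1), ENSRNOG00000009871 (Piwil2), ENSRNOG00000009043 (Piwil4), ENSRNOG00000017064 (Tdrd1), ENSRNOG00000004018 (Tdrd5), ENSRNOG00000053631 (Tdrd9), ENSRNOG00000003790 (Mael), ENSRNOG00000031093 (Mov10l1), ENSRNOG00000026686 (Ddx4) and ENSRNOG00000060343 (Asz1).

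RNA-Seq of testicular tissue from adult male Sprague-Dawley rats, an outbred strain, was used, in 6 samples. The DM group consisted of 3 samples from rats with diabetes induced by streptozotocin (STZ), a drug toxic to pancreatic beta cells. The Nor group consisted of 3 samples from normal rats. Each sample is called 1 rat below, although the sources used here do not state that each came from a single animal. The DM rats had been fed a high-fat diet for 1 month before a single intraperitoneal injection of STZ at 35 mg/kg, and RNA was extracted from the testes 8 weeks after it. Rats were taken as diabetic by their blood glucose, and exact ages were not given. The control rats were injected with citrate buffer, and whether they had also received the high-fat diet is not given in the sources used here. FPKM, the unit of the deposited values, are fragments per kilobase of transcript scaled by library size, so levels of different genes can be compared per length. As the samples were whole testes, fewer cells of a type and less RNA per cell cannot be told apart.

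In the male germ line, long precursor transcripts are cut into piRNAs, which are loaded onto PIWI proteins, members of the Argonaute family. The loaded proteins recognise RNA of transposable elements by base pairing, and either cut it or direct DNA methylation to the elements. Tudor domains bind methylated arginines of PIWI proteins and hold them in germ granules, the intermitochondrial cement of spermatocytes and the chromatoid body of round spermatids. Male mice that lack these genes are typically sterile, with germ cells that stop in meiosis or in the spermatid stage.

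The table held RNA of spermatid markers in both groups. Summed over 10 markers of elongating spermatids, the level was 18920 to 19821 FPKM in the DM rats and 17622 to 20104 FPKM in the Nor rats. For its DM rats, the paper reports reduced spermatogenesis in tissue sections, more apoptotic cells and a lower ratio of testis to body weight. FPKM are scaled by library size, so levels that are alike in both groups do not show that germ-cell numbers were alike. Because the labels' protocol mentions an adipose type, fat markers were also examined. Adipoq ranged from 3.04 to 3.845 FPKM in DM and from 3.849 to 5.25 FPKM in Nor (adjusted p = 0.729 from limma). Its groups did not overlap, as for 13.0% of all genes tested, but the gap was very small. Fabp4, Plin1 and Lep were below the filter, with highest values of 0.910, 0.357 and 0.155 FPKM. Fabp4 was higher in each Nor rat than in each DM rat, at a mean of 0.700 against 0.289 FPKM, and Lep was lower in each. The libraries' read numbers are unknown, but their relative depth could be read from the commonest ratio between libraries among genes below 1 FPKM. Against a mean of 1, it was 0.966 to 1.09 in the diabetic and 0.893 to 1.02 in the Nor rats. Correlations of log2 values across genes were 0.958 to 0.965 within groups and 0.957 to 0.966 between groups, so no library stood apart.

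The members differed widely in level. Mael, whose HMG-box protein is needed for transposon silencing, was the highest, with a mean over the 6 rats of 497 FPKM (rank 79 of 35291 genes). It was followed by Ddx4, the germ-cell helicase also known as Vasa, at 176 FPKM (rank 404). Tdrd1, a scaffold of the intermitochondrial cement, had a mean of 112 FPKM and Piwil1, the PIWI protein of pachytene spermatocytes and round spermatids, of 84.5 FPKM. The means of Piwil2, Mov10l1, Tdrd9 and Tdrd5 lay between 45.6 and 28.6 FPKM, and that of Asz1 was 12.1 FPKM. Piwil4, best known from fetal germ cells, was the lowest at 1.29 FPKM, and the highest mean exceeded the lowest 385 times.

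The order of the levels was the same in every rat. Each of the 9 members above Piwil4 was higher than its next lower neighbour in 6 of 6 rats, and the ranges of the 6 rats did not overlap for any pair of neighbours. The closest neighbours were Piwil2 and Mov10l1, with a ratio of 1.01 to 1.22 within rats, and Tdrd9 and Tdrd5, with a ratio of 1.03 to 1.27. Piwil1 was higher than Piwil2 by a factor of 1.67 to 2.06, and Asz1 exceeded Piwil4 by a factor of 7.24 to 12.2.

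**Figure D1:**
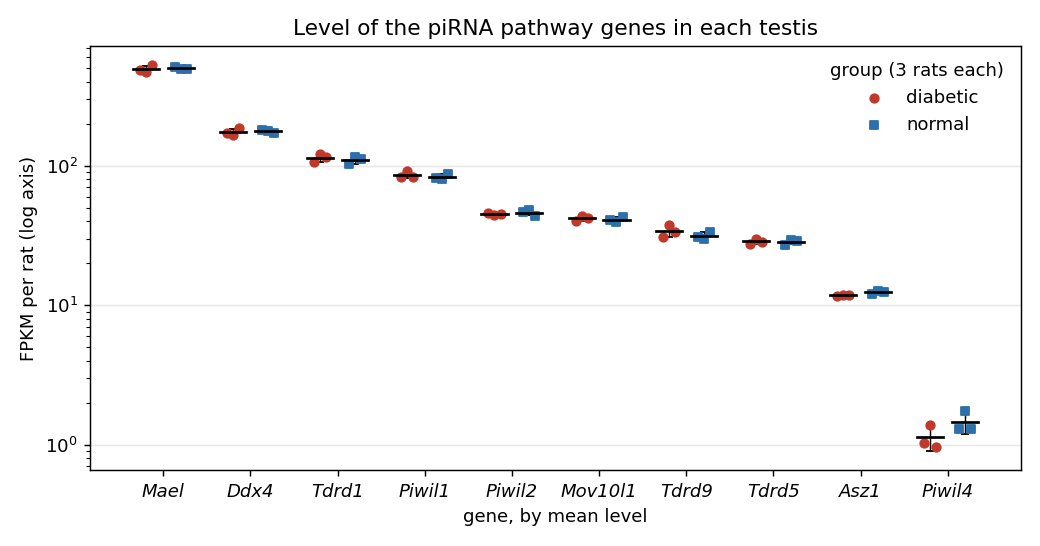
FPKM of each member in each of the 6 rats on a log axis, with members ordered by mean level, circles for the 3 diabetic rats, squares for the 3 normal rats, horizontal lines for group means and bars for SD. The groups lie at nearly the same height from Mael at 497 FPKM down to Asz1 at 12.1 FPKM, and the spread is widest at Piwil4.

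Promoter sequences of 8 of the 10 members were found in RefSeq (build GRCr8), as 250 bases before and 50 after the start of each gene, whereas Piwil2 and Tdrd9 had no entry. The motifs were chosen after the levels had been seen. Of 7 short motifs searched on both strands, the E-box CACGTG was present in 5 of the 8 promoters, those of Mael, Ddx4, Tdrd1, Piwil1 and Mov10l1. These are the 5 members with the highest levels among the 8, and Tdrd5, Asz1 and Piwil4 did not have it. Of all 33469 promoters of the same length, 6.42% held CACGTG, and 10.9% did among the 10717 promoters with at least 15 CG dinucleotides. The members' promoters had between 7 and 32 CG dinucleotides, against a median of 7 over all promoters. In the other genes of the pathway, 9 of 41 promoters held CACGTG, among them those of Pnldc1, which encodes the enzyme that trims piRNA ends, and of Tdrd12 and Ddx25. Over the tested genes with a promoter entry, the median level was 9.55 FPKM in the 949 genes with CACGTG and 7.53 FPKM in the 9147 genes without it. Among those with at least 15 CG dinucleotides, as in 7 of the 8 members, it was 10.3 FPKM in 755 genes with and 9.12 FPKM in 6008 genes without it. Within the pathway, Dnmt3a and Dnmt3l held CACGTG at mean levels of 1.49 and 1.59 FPKM, whereas Tdrd6, Trim28 and Gtsf1, at 309.8, 291 and 167 FPKM, did not hold it. The stretches around each match are shown because they hold the letters shared by the 5 highest of the 8 members searched. Piwil2, whose mean lay above that of Mov10l1, could not be searched. CACGTG is in capitals, and the stretches are written 5′ to 3′ on the strand of the gene.

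Mael (chr13:81029819-81029864, minus strand, match from position -221 relative to the start): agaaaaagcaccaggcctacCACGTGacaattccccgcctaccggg
Ddx4 (chr2:46016006-46016051, minus strand, from position -80): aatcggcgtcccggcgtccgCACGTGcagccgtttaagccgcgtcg
Tdrd1 (chr1:265880918-265880963, plus strand, from position -87): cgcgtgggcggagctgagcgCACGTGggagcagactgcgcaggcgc
Piwil1 (chr12:33606710-33606755, minus strand, from position -152): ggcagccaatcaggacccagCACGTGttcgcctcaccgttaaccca
Mov10l1 (chr7:121949648-121949693, plus strand, from position -154): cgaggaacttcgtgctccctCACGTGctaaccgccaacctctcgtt

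The motif CCAAT was found on either strand in all 8 promoters, against 37.5% of all promoters, 35.2% of those with at least 15 CG dinucleotides and 21 of 41 promoters of the other pathway genes. It is the motif bound by the NF-Y complex, of which Nfya is a subunit. Mael and Mov10l1 held 3 matches each and the other 6 promoters held 1 each. The 250 bases before the start of Mael, the highest member, are shown as they hold CACGTG and all 3 matches of CCAAT, with these motifs in capitals.

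Mael (chr13:81029624-81029873, minus strand): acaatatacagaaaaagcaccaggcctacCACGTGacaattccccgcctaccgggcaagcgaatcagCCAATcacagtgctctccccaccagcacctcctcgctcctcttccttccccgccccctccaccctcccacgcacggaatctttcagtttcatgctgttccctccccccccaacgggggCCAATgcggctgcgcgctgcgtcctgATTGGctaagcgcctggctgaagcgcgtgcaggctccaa

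For the 3 promoters without CACGTG, the stretches around CCAAT are given, with the motif, or ATTGG where it lies on the opposite strand, in capitals.

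Tdrd5 (chr13:70991799-70991830, minus strand, from position -243): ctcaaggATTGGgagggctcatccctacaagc
Asz1 (chr4:47422152-47422196, minus strand, from position -200): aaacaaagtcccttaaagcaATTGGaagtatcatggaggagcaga
Piwil4 (chr8:19861293-19861337, minus strand, from position -97): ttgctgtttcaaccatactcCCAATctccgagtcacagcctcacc

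The other 5 motifs stood closer to their shares over all promoters or were rare in the members. The GC box GGGCGG was in 6 of 8 promoters, against 33.1% of all promoters and 74.7% of those with at least 15 CG dinucleotides. The short core of MYB sites, AACNG, was in 7 of 8 promoters and in 81.4% of all promoters. The longer MYB site CAACTG, which contains the core, was in that of Piwil1 alone, against 13.9% of all promoters. MYBL1, also known as A-MYB, is the transcription factor of pachytene spermatocytes that activates genes of the piRNA pathway in mice. The CRE half-site TGACG was found in the promoter of Ddx4 and the TATA box TATAAA in that of Tdrd5, against 21.2% and 14.2% of all promoters. A match shows only that the letters are present in this window, and binding of a factor was not measured.

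**Figure D2:**
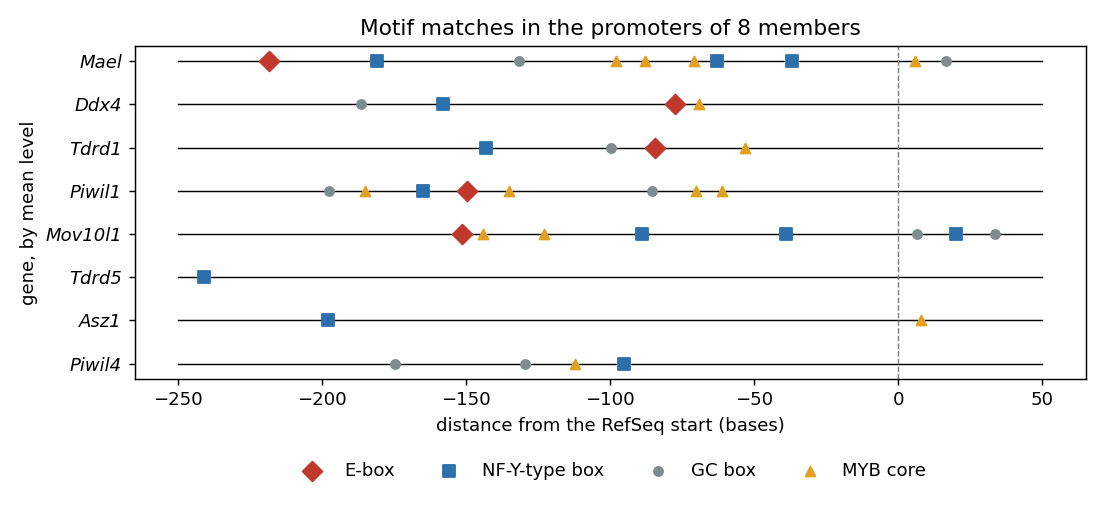
Positions of 4 motifs in the promoters of 8 members, ordered by mean level, with the distance from the RefSeq start in bases on the horizontal axis and each symbol at the middle of a match. The E-box (CACGTG) is found in the 5 upper genes, from position -221 to -80, and the NF-Y-type box (CCAAT) in all 8.

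The study compared diabetic with normal testes to find transcripts that differ. For the piRNA pathway no difference was detected. At an unadjusted p-value from limma below 0.05, 0 of the 10 members were called, whereas 7.46% of the 20338 genes tested were. At an adjusted p-value from limma below 0.05 the number was 0 of 10, against 0.0344% of all genes, and when both an unadjusted p-value below 0.05 and a log2 fold change of 1 or more in size were required, as for the study's screen, it was 0 of 10, against 1.24%. Of the members, 5 had a positive and 5 a negative log2 fold change. Their median was -0.00083, and that of all genes tested was -0.021. The median absolute log2 fold change was 0.043 in the members, 0.11 over all genes tested and 0.064 over the 6753 genes whose mean reached 10 FPKM, a level that 9 of the 10 members reached.

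Among the PIWI proteins, Piwil1 was at 83.0, 91.6 and 83.7 FPKM in DM testes, and at 81.6, 79.8 and 87.5 FPKM in the Nor rats. The highest value came from a diabetic rat, and the groups overlapped. The group means, DM then Nor, were 86.1 ± 4.78 FPKM and 83.0 ± 4.05 FPKM (SD, n = 3 each), a difference of 3.73% with a 95% interval from -6.73% to 15.4% (adjusted p = 0.920 from limma).

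Piwil2, the PIWI protein that acts in early piRNA production and is made from fetal germ cells onwards, was at 46.1, 44.5 and 44.9 FPKM in the DM rats. It was at 46.7, 47.9 and 43.9 FPKM in the Nor rats, and the diabetic values lay within the normal range. Its difference was -2.14%, with a 95% interval from -11.0% to 7.57% (adjusted p = 0.947 from limma).

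Piwil4 encodes the nuclear PIWI protein that directs DNA methylation to transposons, and in the adult testis it is found in a part of the undifferentiated spermatogonia. Its values were 1.03, 1.39 and 0.970 FPKM in the DM rats and 1.30, 1.74 and 1.31 FPKM in the Nor rats. Of the DM rats 2 lay below every normal rat, and the other lay inside the normal range. The group means, DM then Nor, were 1.13 ± 0.227 FPKM and 1.45 ± 0.249 FPKM (SD, n = 3 each), and on the log2 scale they differed by -0.34 (SE 0.22, adjusted p = 0.823 from limma). On the percent scale its 95% interval ran from -44.9% to 14.0%. The exact permutation test gave p = 0.3 for Piwil4, where 0.1 is the smallest p-value that 3 rats against 3 allow.

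Among the Tudor genes, Tdrd1 was at 106, 121 and 115 FPKM in DM testes, and at 103, 116 and 111 FPKM in the Nor rats. The lowest value was from a normal and the highest from a diabetic rat, with overlap in between. The difference was 3.89%, with a 95% interval from -7.77% to 17.0% (adjusted p = 0.924 from limma).

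Tdrd5, which takes part in chromatoid body assembly, was at 27.6, 29.9 and 28.6 FPKM in the diabetic and 27.1, 29.1 and 29.0 FPKM in the Nor rats. The ranges were nearly the same. The difference was 0.945%, with a 95% interval from -9.12% to 12.1% (adjusted p = 0.982 from limma).

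Tdrd9 combines a helicase with a Tudor domain and works with Piwil4 in fetal germ cells. It was at 30.9, 37.8 and 33.8 FPKM in DM testes, and at 30.8, 29.9 and 33.5 FPKM in the Nor rats. Diabetic replicate 2 was the highest of the 6, and the other diabetic rats lay near the normal range. The group means, DM then Nor, were 34.2 ± 3.49 FPKM and 31.4 ± 1.89 FPKM (SD, 3 rats per group). A log2 fold change of 0.12 was the largest positive value of the members (SE 0.090, adjusted p = 0.846 from limma), and the 95% interval ran from -6.25% to 25.7%. With 1 rat left out, the log2 fold change of Tdrd9 ran from 0.042 (without diabetic replicate 2) to 0.19 (without diabetic replicate 1).

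Of the helicases, Mov10l1, which binds piRNA precursors and feeds them into processing, was at 39.9, 43.9 and 42.2 FPKM in the diabetic and 40.8, 39.3 and 43.0 FPKM in the Nor rats. The groups overlapped almost fully. Its difference was 2.26%, with a 95% interval from -8.05% to 13.7% (adjusted p = 0.952 from limma).

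Ddx4 was at 172, 165 and 186 FPKM in DM testes, and at 181, 176 and 173 FPKM in the Nor rats. The 3 normal rats lay inside the diabetic range. The difference was -1.58%, with a 95% interval from -10.8% to 8.60% (adjusted p = 0.967 from limma).

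Mael was at 487, 470 and 525 FPKM in DM testes, and at 508, 492 and 497 FPKM in the Nor rats. As for Ddx4, the normal values lay inside the diabetic range. The difference of Mael was -1.05%, with a 95% interval from -10.1% to 8.87% (adjusted p = 0.977 from limma). Under median-ratio scaling of the samples the log2 fold changes of Mael and Ddx4 became 0.0089 and 0.0012, where the scaling raised all members by nearly the same amount and these values lie close to 0.

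Asz1, a protein of the mitochondrial outer membrane from which the intermitochondrial cement is built, was at 11.6, 11.9 and 11.8 FPKM in the DM rats. In the Nor rats it was at 12.03, 12.6 and 12.5 FPKM. Each diabetic rat was below each normal rat, although the gap was small. The group means, DM then Nor, were 11.8 ± 0.176 FPKM and 12.4 ± 0.288 FPKM (SD, n = 3 each), a difference of -4.81% with a 95% interval from -14.7% to 6.28% (adjusted p = 0.888 from limma). The exact permutation test gave p = 0.1. Asz1 was the 1 member of 10 whose groups did not overlap, or 10.0%, and the groups did not overlap for 13.0% of all genes tested. A share near the background is no result about these genes.

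**Figure D3:**
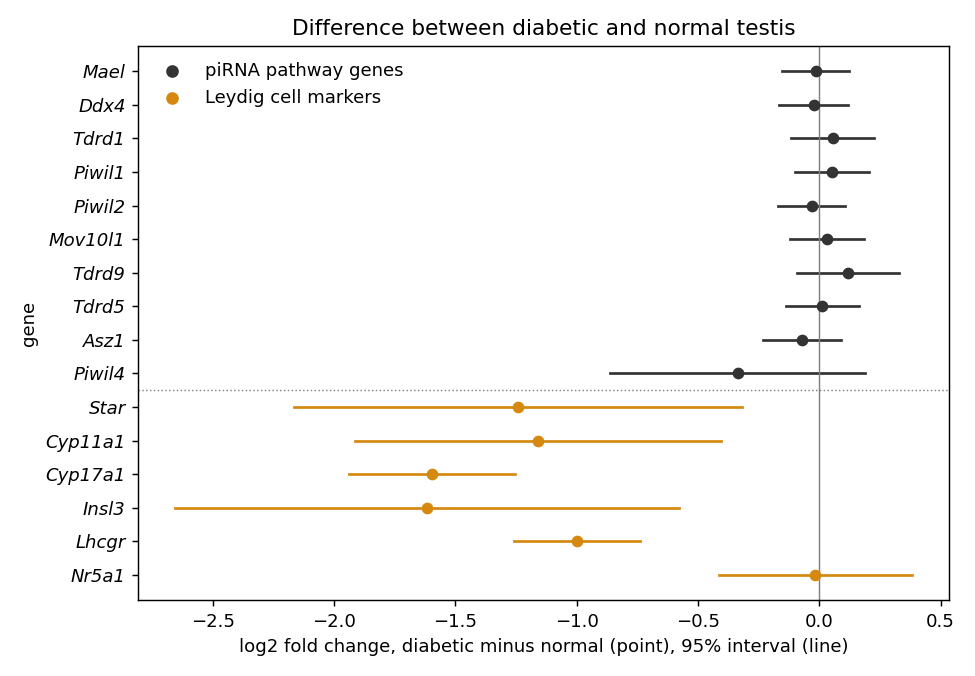
Log2 fold change of diabetic minus normal testis (points) with the 95% interval from limma (lines), for the 10 members and, below the dotted line, for 6 markers of Leydig cells. The intervals of the members include 0 and that of Piwil4 is the widest, whereas the points of Cyp17a1 and Insl3 lie near the low end, with Insl3 at -1.62.

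The intervals describe how large a change could have been missed. For 8 of the 10 members the 95% interval lay within a change of 25% in either direction, and Tdrd9 and Piwil4 were the exceptions. Over the 9 members other than Piwil4 the bounds ran from -14.7% to 25.7%. The spread between rats was small for these genes. The coefficient of variation over the 6 rats was 3.25% to 8.95% for the 9 members and 21.4% for Piwil4. The median within-group SD of log2 values was 0.067 in the members, against 0.10 over genes whose mean reached 10 FPKM.

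The same libraries did differ in genes of Leydig cells, the interstitial cells that make testosterone. Of 6 Leydig markers tested, 5 had an unadjusted p-value from limma below 0.05 and were lower in the DM rats, and 1 of these, Cyp17a1, had an adjusted p-value below 0.05. The marker not called was Nr5a1, with a log2 fold change of -0.016. Cyp17a1, an enzyme of androgen synthesis, had a mean of 9.36 ± 0.448 FPKM in DM and of 28.9 ± 6.30 FPKM in Nor (SD, 3 rats per group; adjusted p = 0.0415 from limma). Without normal replicate 3, 0 genes had an adjusted p-value from limma below 0.05, so this call was lost. Of 5 macrophage markers, 2 were lower at an unadjusted p-value below 0.05, Csf1r and Cd68. Their adjusted p-values from limma were 0.336 and 0.629, and Cd68 had a mean of only 0.778 FPKM over all rats. Cd163, Adgre1 and Mrc1 were not called.

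Since the members are made in germ cells, germ-cell markers were examined beside them. Their levels are scaled by library size, so the reduced spermatogenesis that the paper reports in DM testes was not tested by them. The median log2 fold change was -0.016 over 11 spermatocyte markers, -0.054 over 8 markers of round spermatids and 0.011 over 10 markers of elongating spermatids. Summed over the spermatocyte markers, the level was 1960 to 2100 FPKM in the diabetic and 1945 to 2133 FPKM in the Nor rats. Of these 29 markers, 1 was called at an unadjusted p-value from limma below 0.05, Ccna1 of spermatocytes, whose log2 fold change was 0.17 and whose adjusted p-value was 0.613. Spermatogonial markers had a median of -0.17 over 8 genes, with 2 at an unadjusted p-value below 0.05. The log2 fold change of Kit was -0.30, with an adjusted p-value from limma of 0.635, and that of Uchl1 was 0.34, with one of 0.485. These 3 genes were named after their values had been seen. When each library was scaled on the spermatocyte markers, the median log2 fold change of the members was -0.0082, and 0 of the 10 were called. The factors ran only from 0.954 to 1.03, and such scaling removes any change that members and markers share.

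The other genes of the pathway were followed in 6 lists with 50 different genes, of which 48 had a row and 46 were tested. At an unadjusted p-value from limma below 0.05, 0 were higher and 1 was lower, so 1 of 46 was called, against 7.46% of all genes tested. At an adjusted p-value below 0.05 the number was 0, against 0.0344%. Their median log2 fold change was -0.0075. Of the 46 genes, 22 were above and 24 below 0.

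The 12 biogenesis enzymes and partners had 0 calls and log2 fold changes between -0.099 and 0.13. The lowest p-value in this list was that of Gpat2, a mitochondrial partner of Piwil2, with 9.41 ± 0.326 FPKM in DM and 9.97 ± 0.211 FPKM in Nor (SD, 3 rats per group; adjusted p = 0.878 from limma). Of the 8 other Tudor genes tested, 0 were called. The lowest p-value was that of Tdrd6, a scaffold of the chromatoid body, at 322 ± 21.5 FPKM and 297 ± 9.75 FPKM (SD, 3 rats per group; adjusted p = 0.782 from limma). Tdrd6 also led the list of 8 germ granule genes, which had 0 calls.

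The nuclear silencing genes gave the 1 call. Tex15, which is needed for meiotic recombination and for DNA methylation of transposons together with Piwil4, was at 14.7, 14.9 and 15.6 FPKM in the DM rats. In the Nor rats it was at 17.2, 17.8 and 16.1 FPKM. The groups did not overlap. Tex15 differed by -0.17 on the log2 scale (SE 0.071), and the unadjusted p-value from limma was 0.0424, but the adjusted p-value was 0.661. The call of Tex15 was lost under median-ratio scaling (unadjusted p = 0.0610 from limma), without the trend in eBayes (0.0734) and with a block for the replicate number (0.0680). It was also lost without diabetic replicate 1 (0.108), diabetic replicate 2 (0.0967), normal replicate 1 (0.101) or normal replicate 2 (0.129), all unadjusted p-values from limma. Of the 10 genes tested in this list, 4 had groups that did not overlap, against 13.0% of all genes tested. They were Tex15, Dnmt3b, Uhrf1 and Setdb1, 2 lower and 2 higher in mean. This list was picked out after the values had been seen. Over the 6 pathway lists together, 5 of the 46 genes tested had groups that did not overlap, these 4 and Gpat2. The log2 fold changes of this list ran from -0.35 for Dnmt3l (95% interval from -1.10 to 0.39) to 0.44 for Nanos2 (95% interval from -0.47 to 1.36), both genes of low level.

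The 4 transcription factors had positive log2 fold changes between 0.034 and 0.22, and 0 of them were called. Mybl1 was at 21.8, 23.6 and 28.7 FPKM in DM testes, and at 22.5, 19.7 and 26.2 FPKM in the Nor rats, and the groups overlapped. Btbd18, which promotes transcription of pachytene piRNA precursors, had the lowest p-value of this list, at 1.89 ± 0.124 FPKM and 1.62 ± 0.216 FPKM (SD, n = 3 each; unadjusted p = 0.237 from limma). Tcfl5, a testis factor of the bHLH class, the class that binds E-boxes, was at 93.8 ± 5.65 FPKM and 91.5 ± 3.38 FPKM (SD, n = 3 each). The last list, labelled somatic paralogs, held Ago1, Ago2, Ago3, Ago4, Mov10, Ddx3x and Ythdc2. The label is only a name here, as the cells that express these genes were not tested. Of the 7 genes, 0 were called, and the log2 fold changes were between -0.073 and 0.11.

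**Figure D4:**
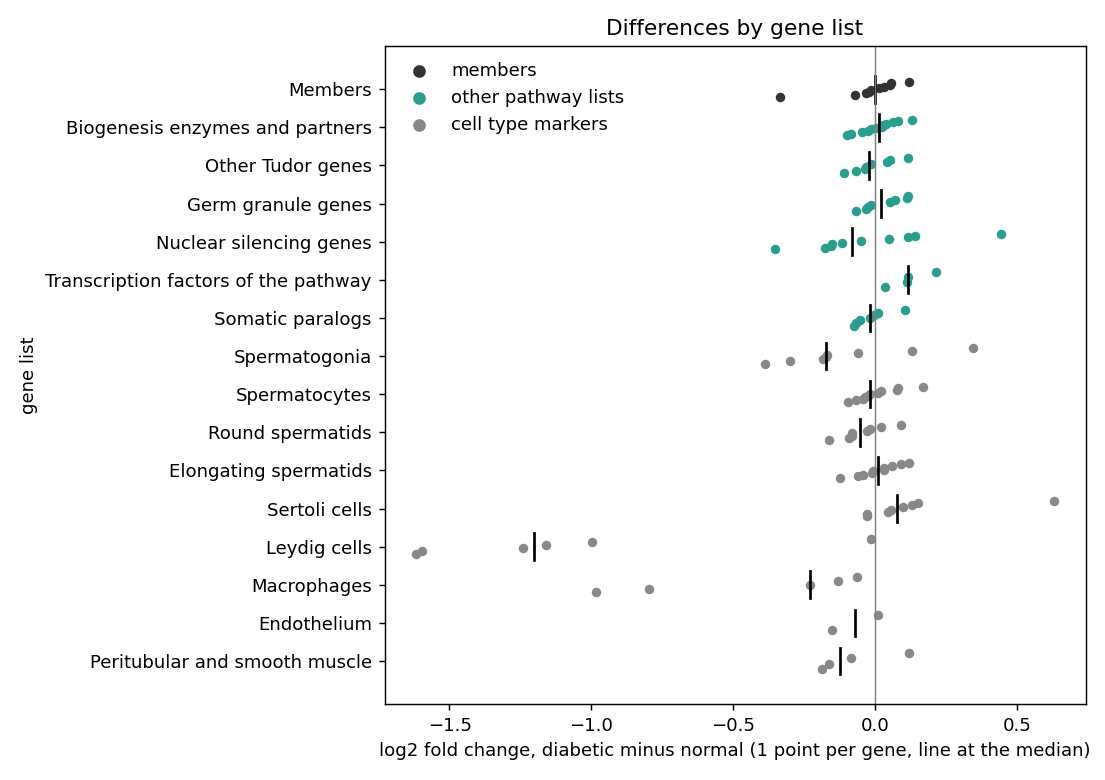
Log2 fold change of diabetic minus normal testis for each gene tested (points) and the median (black lines), by gene list, with the members on top, then 6 lists of the pathway and 9 lists of cell-type markers. The members and the pathway lists are centred near 0, whereas 5 of the 6 points of the Leydig markers lie far to the left, down to -1.62.

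The members were also compared with each other from rat to rat, in 45 pairs, as a description. Of the 45 pairs, 9 had an exact permutation p-value of r below 0.05, 6 with a positive and 3 with a negative r, and 0 had one after Benjamini-Hochberg adjustment over the 45, where the lowest was 0.0625. The share of such pairs among other genes in these libraries was not computed, so the count of 9 is no result about the members. The pairs described were chosen after their values had been seen. Mael was 2.79 to 2.87 times as high as Ddx4 in each of the 6 rats, while Mael itself ranged from 470 to 525 FPKM. Both were highest in diabetic replicate 3 and lowest in diabetic replicate 2. Across the 6 rats the correlation of Mael and Ddx4 on the log2 scale was r = 0.972 (exact permutation p = 0.00556) and rho = 0.943 (exact permutation p = 0.0167). After the 2 rats farthest from the median of Mael were left out, it was r = 0.850. In the pairs below, the 2 farthest rats were likewise chosen by 1 gene only. It was the gene of the pair that comes first in the opening list of members.

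The pair Tdrd1 and Tdrd5 was highest in diabetic replicate 2 and lowest in normal replicate 1, with r = 0.956 (exact permutation p = 0.00417) and rho = 0.943 (exact permutation p = 0.0167), and r = 0.839 without the 2 farthest rats. Piwil1, Tdrd9 and Mov10l1 shared another pattern, with the highest value in diabetic replicate 2 and the lowest in normal replicate 2. Piwil1 had r = 0.940 with Tdrd9 (exact permutation p = 0.00417, rho = 0.943, exact permutation p = 0.0167) and r = 0.814 without the 2 farthest rats. Tdrd9 had r = 0.934 with Mov10l1 (exact permutation p = 0.00556, rho = 0.886, exact permutation p = 0.0333) and r = 0.907 without the 2 farthest rats. Piwil1 had r = 0.913 with Mov10l1 (exact permutation p = 0.00833, rho = 0.943, exact permutation p = 0.0167) and r = 0.721 without the 2 farthest rats.

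Of these 5 pairs, with the highest r of the 45, the adjusted p-value of r was 0.0625 for the first 4 and 0.0750 for Piwil1 with Mov10l1. Next came Piwil4 with Asz1, with r = 0.804 (exact permutation p = 0.0458, rho = 0.771, exact permutation p = 0.103) and r = 0.659 without the 2 farthest rats.

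Piwil2 ran opposite to the group of Piwil1, Tdrd9 and Mov10l1 in these 6 rats. With Mov10l1 it had r = -0.907 (exact permutation p = 0.0222, rho = -0.886, exact permutation p = 0.0333) and r = -0.866 without the 2 farthest rats. With Piwil1 it had r = -0.847 (exact permutation p = 0.0319, rho = -0.943, exact permutation p = 0.0167) and r = -0.966 without the 2 farthest rats. With Tdrd9 it had r = -0.806 (exact permutation p = 0.0403, rho = -0.829, exact permutation p = 0.0583) and r = -0.919 without the 2 farthest rats. The relative depth moved with a part of these patterns. Diabetic replicate 2 and normal replicate 3, in which Piwil1 and Mov10l1 were highest, had the lowest relative depths at 0.966 and 0.893, and diabetic replicate 3, the highest in Mael and Ddx4, had the highest at 1.09. The part of the depth in these patterns was not tested.

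**Figure D5:**
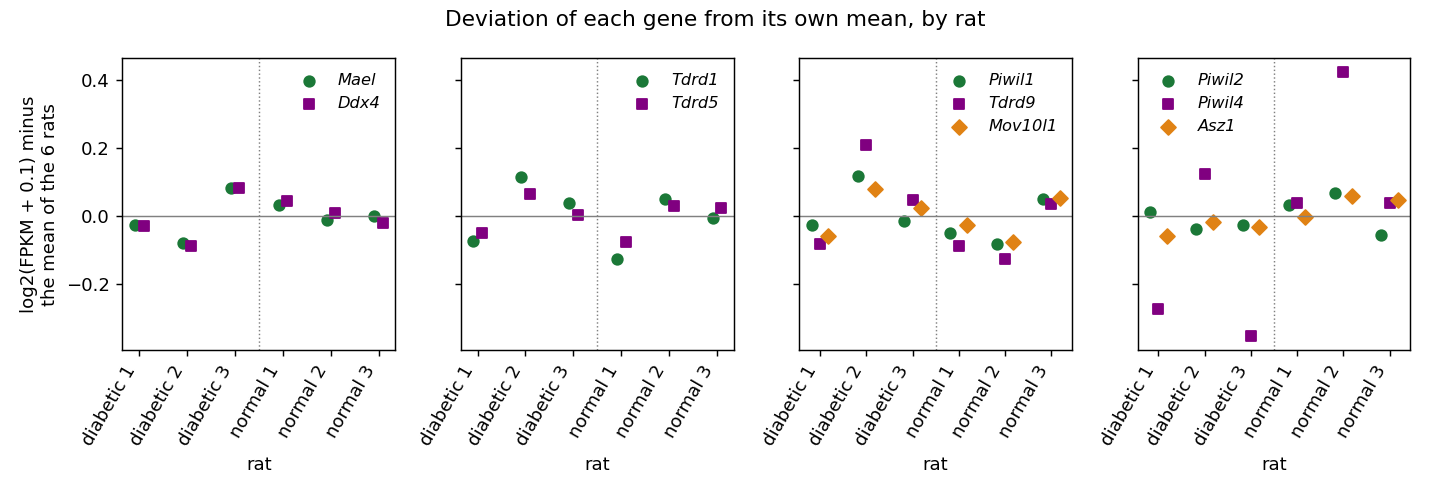
Deviation of log2(FPKM + 0.1) from the mean of the 6 rats for each member, by rat, in 4 panels grouped after the values had been seen, with the dotted line between diabetic (left) and normal (right) rats. Mael and Ddx4 lie close together in the first panel, and Piwil4 in the last reaches from -0.35 to 0.43.

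Piwil4, the member with the largest absolute log2 fold change, had the lowest values in diabetic replicates 1 and 3 and the highest in normal replicate 2. The named genes with the most similar pattern were Yars2 and Rps4x, by the root mean square difference of centred log2 values over the 6 rats, which was 0.053 and 0.078. An assembled locus without a symbol followed, at 0.081. Yars2 was at 1.60, 2.07 and 1.59 FPKM in the diabetic and at 2.05, 2.51 and 2.08 FPKM in the Nor rats.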

How the data were processed

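Testis RNA of 3 diabetic and 3 normal rats was sequenced as paired ends on an Illumina instrument. According to the methods and the labels, the authors screened reads against rRNA with BWA, used STAR for alignment and StringTie for transcript assembly. The values they deposited are FPKM per gene. Tool versions and genome build are not given in the sources used here, nor whether strand was used, so reads of antisense genes cannot be told apart. The authors screened transcripts with DESeq2, which needs counts and was not repeated here. Of the members, 4 (Piwil4, Tdrd1, Tdrd5 and Mov10l1) have values that run past 6 decimals, which a sum over several entries would give.

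FPKM were transformed to log2(FPKM + 0.1), which understates changes of low genes, and 20338 genes whose mean reached 0.5 FPKM were compared with limma 3.58.1 in R 4.3.3 (lmFit, eBayes with trend), two-sided, with Benjamini-Hochberg adjustment over all of them. Intervals of differences and folds come from this fit. Exact permutation tests were run in Python 3.11.15. The labels do not say more of the replicates than that they are separate samples, so p-values measure the spread between these. Members and gene lists were chosen with earlier results of these data known. Named genes are the members, called genes of each list or else the gene with its lowest p-value, and the 3 genes most like the member with the largest change. Other genes named in the text, such as Mybl1, Tcfl5, Dnmt3b, Dnmt3l, Nanos2, Uhrf1, Setdb1, the marker genes and holders or non-holders of a motif, were chosen after their values had been seen. The steps were tested on simulated data. Of the marker lists, peritubular, endothelial and Sertoli genes had 0 calls at an unadjusted p-value from limma below 0.05 and 0 at an adjusted one. Tdrd10, Spocd1, Hsd3b1 and Pecam1 had no row under these symbols, so their levels were not analysed. Promoters came from RefSeq (GRCr8). The alternatives were another pseudocount, filter, scaling or eBayes setting, protein-coding genes only, the replicate number as a block and leaving out each rat.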

Additional observations from a re-analysis of the deposited data

How the results depend on the processing

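The number of members called was 0 of 10 under all 16 alternatives, by the unadjusted and by the adjusted p-value from limma, and the median log2 fold change of the members moved by less than the spread between rats. The log2 fold change changed sign for Mael (0.0089) and Ddx4 (0.0012) under median-ratio scaling, which raised all members by nearly the same amount. With 1 rat left out it ran from -0.060 to 0.020 for Mael, -0.070 to 0.016 for Ddx4, -0.00034 to 0.069 for Mov10l1 and -0.020 to 0.042 for Tdrd5, with the sign changed without diabetic replicate 2 for each of them and without normal replicate 1 for Tdrd5. The cause was not tested. The other 6 members kept their direction, but with 1 rat left out the sizes ran from 0.0074 to 0.092 for Piwil1 (without diabetic replicate 2 and normal replicate 3), 0.0052 to 0.11 for Tdrd1 (normal 1, diabetic 1), -0.066 to -0.0047 for Piwil2 (normal 3, normal 2), -0.48 to -0.21 for Piwil4 (diabetic 2, normal 2), 0.042 to 0.19 for Tdrd9 (diabetic 2, diabetic 1) and -0.090 to -0.058 for Asz1 (normal 1, normal 2).

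Over all genes, the 253 genes at the study's threshold became 91 with a pseudocount of 1, 621 without a filter and 85 among protein-coding genes. The 7 genes at an adjusted p-value from limma below 0.05 became 3 without a filter, 12 when eBayes had no trend, 36 among protein-coding genes, and 0 to 11 with 1 rat left out (0 without normal replicate 3, where 1504 had an unadjusted one below 0.05, 4 without diabetic replicate 1 and 11 without normal replicate 1). Of the other pathway genes, the 1 call, Tex15, became 0 under median-ratio scaling and with eBayes without the trend, and 0 to 3 with 1 rat left out. The 3 were Tex15, Tdrd6 and Henmt1 without diabetic replicate 3, and Ddx25 was called without normal replicate 2.

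Both groups number their replicates alike, although each number stands for a separate sample in each group. The deviations of same-numbered rats from their group means correlated across genes with 0.11, 0.015 and 0.098. Between unlike numbers the values ran from -0.13 to 0.032. For replicates 1 and 3 the same-numbered value was the highest, whereas diabetic replicate 2 correlated best with normal replicate 3 (0.032). Whether the numbers mark something shared between the groups was not tested. With the replicate number as a block, 4 genes had an adjusted p-value below 0.05, 0 of the other pathway genes and 0 members had an unadjusted one below 0.05. Read numbers are unknown, so no counting error could be given.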
